A study of Monopterus albus with 3 samples.

Results

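Retained introns are stretches of the genome that one transcript of a gene splices out and another transcript of the same gene keeps inside an exon. In the gonad transcript models of *Monopterus*, 133 distinct introns of this kind lay inside coding exons, among 126302 distinct introns in all. They were chosen by position alone: an intron is a gap between consecutive coding segments of a transcript, and it was taken where it lay wholly inside a single coding segment of another transcript with the same Cufflinks gene identifier and strand. Such a pair can exist only in genes with 2 or more transcripts on one strand, of which there were 8894, with 76765 distinct introns. The 133 retained introns made up 0.173% of these and came from 125 genes on 97 scaffolds. The other 1402 introns of the same 125 genes serve as the background.

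The models came from 3 RNA-seq libraries of the swamp eel *Monopterus albus*, 1 each from ovary (female), ovotestis (intersex) and testis (male), the gonads through which this fish passes as it changes sex. No treatment was given in the labels, and the libraries were made from poly(A) RNA. The authors' annotation is 1 file for all the libraries, with 1 coverage and 1 FPKM value per transcript, so no gonad could be compared with another, no replicate error could be measured and nothing was tested. The sources used here do not give the age or number of fish per library, or the number of reads. Marker genes of the gonads could not be checked, since the identifiers carry no gene names, and regions are therefore given by scaffold and position, counted from 1 on the authors' scaffolds.

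Introns are removed by the spliceosome, which recognizes the splice sites at both ends. An intron that stays in the message usually brings a stop codon into the reading frame, and such RNA is often held in the nucleus or degraded. Where the kept stretch has no stop in frame and its length is a multiple of 3, the message can instead be read through and the protein gains a block of residues. Introns inside coding exons have been called exitrons in plants and human. In mouse, intron retention is known to be common in spermatocytes.

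The deposited models hold open reading frames rather than whole transcripts, and this limits what can be seen. The summed length of the segments was a multiple of 3 in all but 117 of 75480 transcripts. Taken as open frames, the retaining segments held every intron described here to its last base. For 2 of the 133 introns, the retaining segment ended there. An intron with an earlier stop in that frame would have cut the segment short and could not enter the set. The values for length, frame and place below thus describe retained introns that lie wholly within such coding segments, and not all retained introns of these gonads. The scaffold sequence was not used here, so splice sites and the encoded residues are not shown.

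Of the 125 genes, 118 had 1 retained intron, 6 had 2 and 1 had 3. Most of these genes had few transcripts, with exactly 2 in 74 genes, 3 in 42, and 4 or 5 in 9. The intron was spliced by a single transcript in 129 of the 133 cases and retained by a single transcript in 109. Genes with a retained intron had a median of 10 distinct introns and a longest coding sequence of 1770 bp at the median. The 6904 other genes with introns and 2 or more transcripts had medians of 8 introns and 1272 bp. A gene with more introns has more chances to have one retained, so these medians are given as a description.

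Retained introns were short. Their lengths ran from 51 to 1026 bp with a median of 101 bp and quartiles of 84 and 158 bp, whereas the other introns of the same genes had a median of 281 bp and quartiles of 126 and 813 bp. In genes without a retained intron the median over 75230 introns was 395 bp. Of the 133, 66 were at most 100 bp long and only 4 exceeded 600 bp. The share of introns that were retained fell with length at each step: 3.28% of those up to 75 bp (17 of 518), 0.576% from 76 to 100 bp (49 of 8508), 0.291% from 101 to 150 bp, 0.127% from 151 to 300 bp, 0.108% from 301 to 600 bp and 0.0132% above 600 bp (4 of 30290). The exact 95% intervals of neighboring classes overlapped only between 101 to 150 bp and 151 to 300 bp, and between 151 to 300 bp and 301 to 600 bp. These intervals cover counting error only. The models hold open frames only, and the part of this in the order by length was not tested.

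The 5 longest retained introns show what this means in gene models. The longest, of 1026 bp, lay on scaffold 147 from 1581906 to 1582931 on the minus strand, as intron 11 of 16 in its splicing transcript. Retaining it adds 342 codons within a coding sequence of 4737 bp. The next longest, of 875 bp on scaffold 166 (1069916 to 1070790), is not a multiple of 3, and its flanks were read in the same frame only on the 3′ side. Scaffold 1 carried one of 690 bp (1239526 to 1240215) and scaffold 131 one of 636 bp (211976 to 212611), both multiples of 3. The last of the 5, with 529 bp on scaffold 165 (169595 to 170123), was the only intron of its splicing transcript, and its retaining transcript was a single coding segment of 3483 bp.

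At the other end, the shortest retained intron measured 51 bp, which is 17 codons, and lay on scaffold 202 from 371032 to 371082. It was intron 9 of 14 and was kept by 2 transcripts of a gene with 3. Introns of 53 bp on scaffold 431 (104833 to 104885), 54 bp on scaffold 176 (65516 to 65569) and scaffold 87 (930665 to 930718), and 57 bp on scaffold 60 (2171906 to 2171962) followed. Except for that of 53 bp, all of these 5 are multiples of 3.

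**Figure D1:**
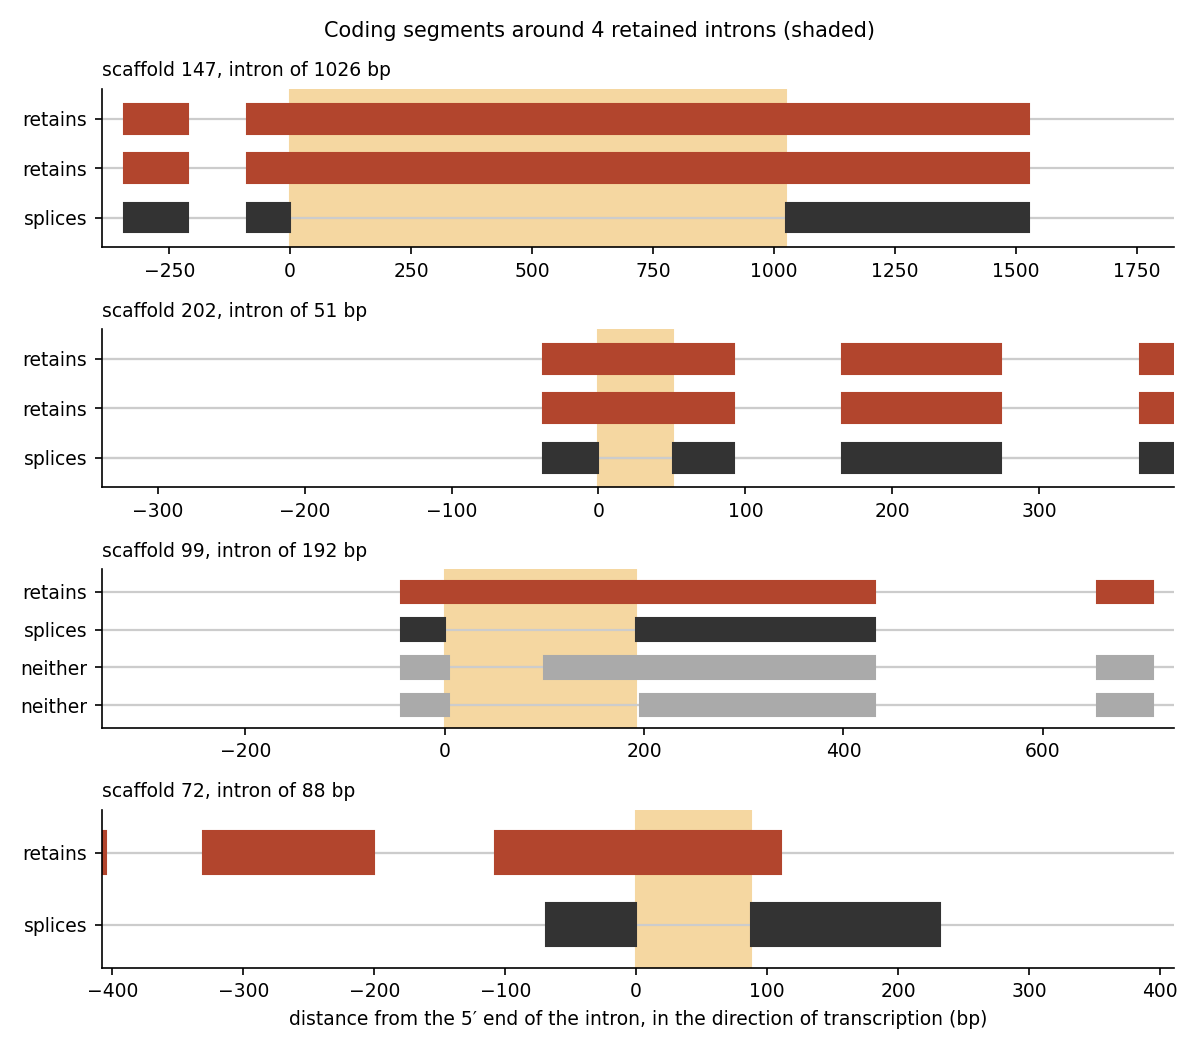
Coding segments (boxes) of each transcript around 4 retained introns, plotted by distance in bp from the 5′ end of the intron in the direction of transcription: the longest (1026 bp), the shortest (51 bp), the first of the gene with most retained introns (192 bp) and that on scaffold 72 (88 bp). The intron is shaded, red transcripts retain it, black transcripts splice it and grey transcripts do neither; in the upper 3 genes the retaining segment ends where the 2 flanking segments of the splicing transcript end, and on scaffold 72 it does not.

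The length was a multiple of 3 for 80 of the 133 retained introns, or 60.2% (exact Clopper-Pearson 95% interval 51.3 to 68.5). Among the other introns of the same genes it was so for 423 of 1402, or 30.2% (27.8 to 32.6), and among the introns of genes without a retained one for 33.3%. The 2 intervals did not overlap. Introns of one gene are not replicates and the models hold open frames only, so no test was made. The remaining 53 were split over both remainders, with 30 leaving 1 base and 23 leaving 2 bases. By length class, the other introns were those of all genes with 2 or more transcripts, with or without a retained one. The share of retained introns was above theirs in every class. It was lowest from 76 to 100 bp, with 25 of 49 against 33.4% of these other introns, and highest from 301 to 600 bp, with 85.7% (12 of 14) against 32.8%. The most frequent single lengths were 90 bp with 7 introns and 81 bp with 6.

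The multiples of 3 were concentrated in introns whose retaining segment was built exactly from the flanking segments. For each intron, the splicing and the retaining transcript with the longest coding sequence were compared. In 66 introns, the retaining segment began and ended where the 2 flanking segments of the splicing transcript begin and end, and 61 of these (92.4%, interval 83.2 to 97.5) were multiples of 3. In the other 67, at least one end differed, and 19 (28.4%, interval 18.0 to 40.7) were multiples of 3, close to the 30.2% of the background. With matching ends, a length that is not a multiple of 3 would need another open frame on one side of the intron, so the segment ends and the frame are not independent in these models.

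**Figure D2:**
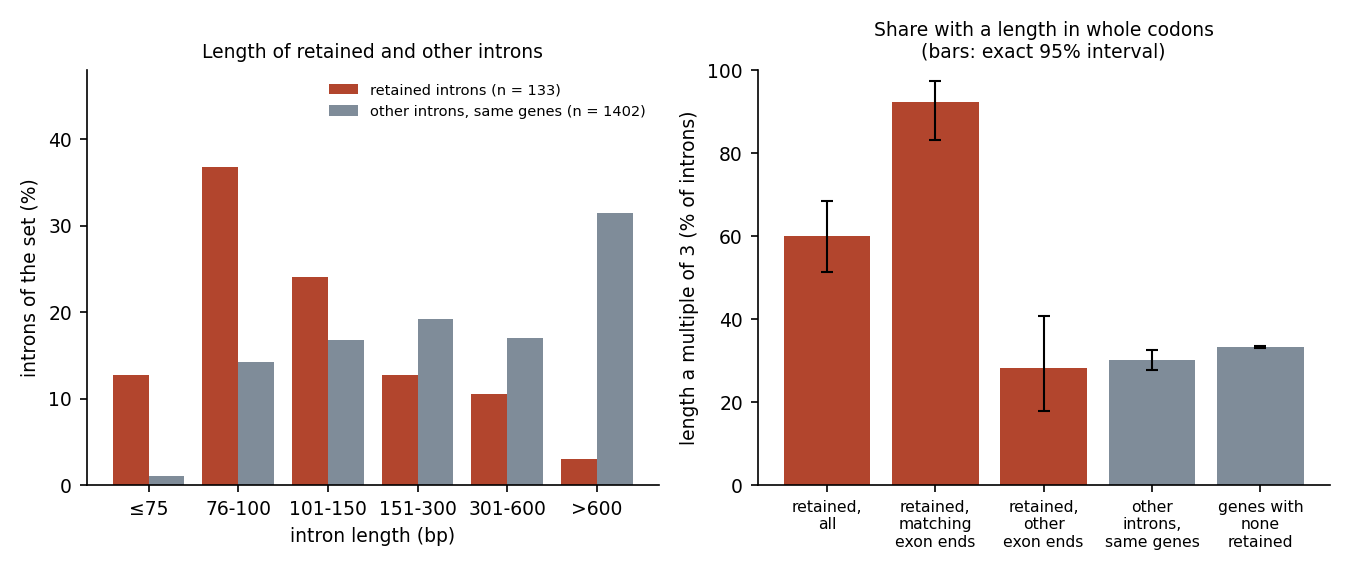
Left, share of introns in each length class (bp) for the 133 retained introns and the 1402 other introns of the same genes; right, percent of introns with a length that is a multiple of 3, with exact 95% intervals as error bars. Of the 133 retained introns, 98 lie in the classes up to 150 bp. The share of whole codons is 60.2% over all 133, 92.4% with matching segment ends and 28.4% with other ends. In the grey background sets it is 30.2% and 33.3%.

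The reading frame on both sides of the intron was followed in these pairs of transcripts. Of the 80 introns that are multiples of 3, 77 were flanked by bases read in the same frame in both transcripts. In these the retaining coding sequence was lengthened at that place by a whole number of codons. In 2 of the others neither flank was in the same frame, and in 1 the retaining segment ended with the last base of the intron. Of the 80, 38 lay between codons, 30 after the first base of a codon and 12 after the second. In the latter 2 groups the intron splits a codon of the splicing transcript. Both the first and the last coding base were shared by the pair in 42 of the 80. In 26 of these the 2 coding sequences were identical at every other segment boundary and differed by the intron alone. Parts outside the coding segments are not in the models, so differences there could not be seen. Over all 80 introns, also those without the same frame on both sides, the length ran from 17 to 342 codons with a median of 35 codons. The intron made up 6.76% of the retaining coding sequence at the median.

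None of the 53 introns that are not multiples of 3 kept the frame on both sides, as their length dictates, and none had a pair with the same start and end. The frame was shared before the intron only in 34 and after it only in 16. In the first of these groups the intron lay near the end of the coding sequence, at a median of 91.0% of the splicing transcript, with a median of 85 coding bases left after it in the splicing transcript and 126 in the retaining one. In the second group it lay early, at a median of 25.2%, with a median of 136 coding bases before it in the splicing transcript and 82.5 in the retaining one. Thus 19 of the 34 lay in the last 10% of the coding sequence and 7 of the 16 in the first 10%. Of the other introns of the same genes, 10.8% lay in the last 10% and 12.7% in the first 10%. The retained intron on scaffold 72, from 314741 to 314828 on the plus strand, shared the frame before it only but lay early, at 17.7% of the splicing transcript. Its 88 bp leave a remainder of 1, and the retaining transcript, with a coding sequence of 831 bp in 6 segments, ended 23 bases after it, while the splicing transcript began within the same segment and ran on to a coding sequence of 390 bp in 4 segments.

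The place of an intron in the coding sequence was measured as the percent of the coding bases of the splicing transcript that precede it. Retained introns had a median position of 56.7% (interval 44.4 to 68.2). The median of the other introns of the same genes, 50.3%, lies within that interval. The 80 multiples of 3 were spread along the coding sequence, with a median of 52.4% and 15 of 80 (18.8%) in the first or last 10%. By contrast, the 53 that are not multiples of 3 had a median of 84.1%, and 29 of them (54.7%, interval 40.4 to 68.4) lay in the first or last 10%. Of the other introns, 23.5% did. The last 10% alone held 21 of the 53 (39.6%), against 10.8% of the other introns. A length that is not a multiple of 3 shifts the frame, and the shift bears on where an open frame starts or ends. Place and length are therefore not independent in these models, and the part of this in the contrast was not tested. On scaffold 128, 3 coding bases preceded the intron in the splicing transcript and 4315 in the retaining one. By order, 62 of the 133 retained introns were internal, 26 were the first, 37 the last and 8 the only intron of their splicing transcript. Internal introns made up 46.6% (interval 37.9 to 55.5) of the retained and 79.1% of the other introns, and last introns 27.8% (20.4 to 36.3) and 9.63%. The genes count almost equally among the retained introns, whereas among the other introns each gene counts by its number of introns. Genes with many introns, most of them internal, thus weigh more in the background. How much of these contrasts by order comes from this weighting was not tested.

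**Figure D3:**
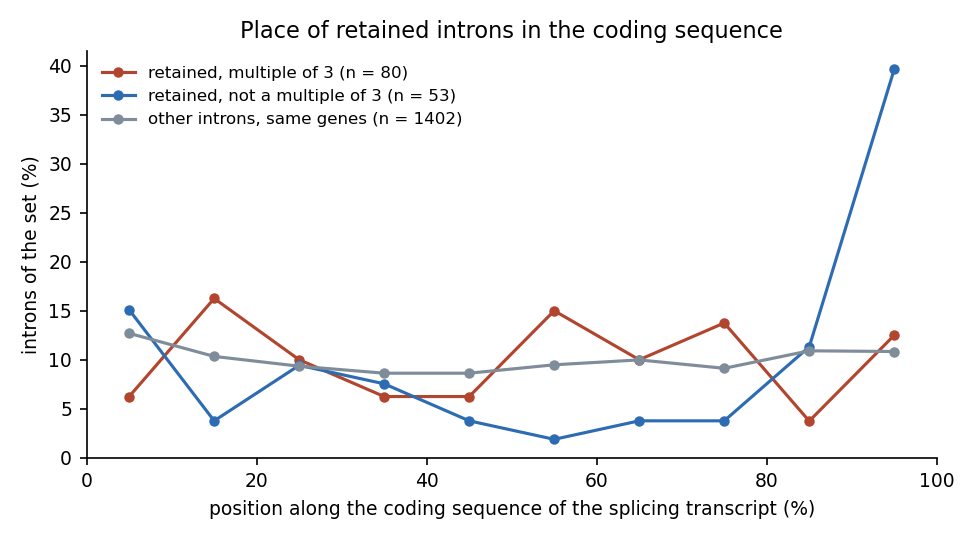
Percent of introns in each 10% of the coding sequence of the splicing transcript, for retained introns that are multiples of 3 (n = 80), retained introns that are not (n = 53) and the other introns of the same genes (n = 1402). The blue line rises to 39.6% in the last 10%, while the grey line stays near an even spread and the red line scatters around it.

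Introns can also be described by the place in a codon at which they fall. Of the retained introns, 45.9% lay between codons, 39.1% (interval 30.8 to 47.9) after the first base of a codon and 15.0% (interval 9.43 to 22.3) after the second. The corresponding values of the other introns were 46.2%, 31.7% and 22.0%. The intervals of retained and other introns overlapped for all 3 positions.

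Retaining transcripts had more coverage than splicing transcripts in most cases. Coverage is the read depth that Cufflinks assigns to a transcript. It divides reads shared by transcripts of a gene by a likelihood model, so the values on the 2 sides are not independent. Summed over the transcripts on each side, coverage had a median of 135 for retaining and 74.2 for splicing transcripts. It was higher on the retaining side for 94 of the 133 introns (70.7%) and lower for 39. In genes without a retained intron, the transcript with the fewest coding segments was higher than that with the most in 39.0%. That background compares single transcripts, whereas coverage was summed here where several transcripts kept or spliced the intron. Nor did the retaining transcript always have fewer segments: for the 875-bp intron on scaffold 166 it had 24 against 7. The median log2 ratio of retaining to splicing coverage was 0.68 (95% interval of the median by order statistics 0.38 to 0.95), which is 1.60-fold, with quartiles of -0.16 and 1.66. A ratio of at least 2-fold was found toward retention for 53 introns and toward splicing for 9, and 71 were within 2-fold. A sum can favor the retaining side, where 109 introns had a single transcript, against 129 on the splicing side. With the mean on each side in place of the sum, the median log2 ratio was 0.55. Coverage was then lower on the retaining side for 31.6%.

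A pair of backgrounds was set beside these ratios, both from genes with 2 or more transcripts and no retained intron. In the 5205 such genes with unequal numbers of coding segments, the transcript with the fewest segments had at least 2-fold more coverage than that with the most in 17.4% and at least 2-fold less in 34.6%, with a median log2 ratio of -0.42. In 5214 genes with exactly 2 transcripts of unequal coding length, the one with the longer coding sequence had more coverage in 59.9%, with a median log2 ratio of 0.37. Coding length moves with retention here, since the retaining transcript had the longer coding sequence for 102 of the 133 introns. For these 102 the median log2 ratio of coverage was 0.87, and for the 31 with a shorter retaining sequence it was 0.10 (16 higher, 15 lower). In the 74 genes with a retained intron and exactly 2 transcripts, the transcript with the longer coding sequence had more coverage in 67.6%, with a median log2 ratio of 0.47 (interval 0.14 to 0.94) that includes the 0.37 of the genes without one.

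The ratio was also described by length. For the 80 multiples of 3, retaining transcripts had more coverage in 66 (82.5%), with a median log2 ratio of 0.84 (interval 0.56 to 1.23). For the 53 others they did so in 28 (52.8%), with a median of 0.32 (interval -0.22 to 1.03). The intervals of these medians overlap, and the difference was not tested. Of the 9 introns with at least 2-fold less coverage on the retaining side, 7 were not multiples of 3. That is 13.2% of the 53, against 2.5% of the 80 multiples of 3. All 9 were also at most 100 bp long, so frame and length are not separated here. Longer introns had higher ratios, with a median log2 ratio of 0.36 for the 66 introns of up to 100 bp, 0.88 for the 41 of over 100 to 200 bp and 1.48 for the 26 above 200 bp. Within the multiples of 3 the same classes gave 0.68, 0.91 and 1.75 (n = 36, 24 and 20). The intervals of these medians overlapped between neighboring classes and between the shortest and the longest.

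**Figure D4:**
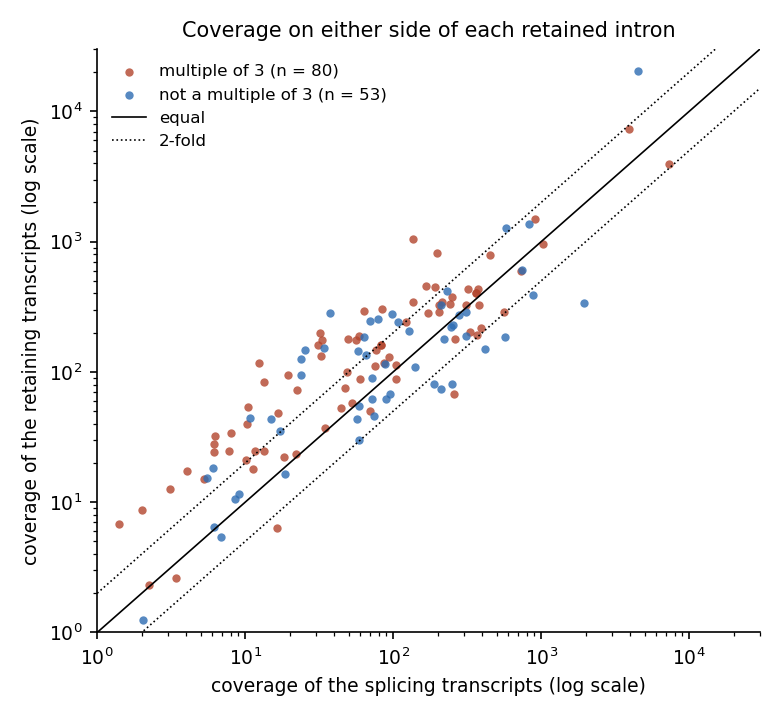
Coverage of the retaining transcripts against that of the splicing transcripts for each of the 133 retained introns, both on log axes, with the line of equality and 2-fold lines. Of the points, 94 lie above the line of equality, 53 of them on or above the upper 2-fold line, and 9 lie on or below the lower one.

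The closest comparison is that of the 26 pairs whose coding segments differ by the intron alone. All of these introns are multiples of 3, which follows from the choice, since 2 open frames of whole codons can differ only by whole codons. They were between 54 and 636 bp long, with a median of 34.5 codons. The retaining transcript had more coverage in 22 pairs and less in 4, with a median log2 ratio of 1.29 (interval 0.11 to 1.97), or 2.44-fold. In each pair the retaining coding sequence is also the longer one. In genes with exactly 2 transcripts and no retained intron, the longer coding sequence had more coverage in 59.9%. No smallest coverage was required of the 26 pairs. Their splicing transcripts had a median coverage of 19.35, a lower quartile of 6.20 and a lowest value of 1.40. Part of these ratios thus rests on few reads. On scaffold 16, an intron of 303 bp (3641140 to 3641442), the third of 5, was retained at a coverage of 198 and spliced at 31.8, a 6.22-fold difference. The intron of 636 bp on scaffold 131 was retained at 6.84 and spliced at 1.40, or 4.88-fold. Both pairs lie far above equality, although the latter rests on few reads. The intron of 54 bp on scaffold 87 was retained at 1.59-fold the coverage of 47.1 at which it was spliced. On scaffold 105, an intron of 102 bp (1789204 to 1789305) had nearly equal values of 328 and 310. The order was turned in the pair on scaffold 176, with an intron of 81 bp (64921 to 65001). The retaining transcript of the pair had a coverage of 57.7 and the splicing one 103.7. Another transcript of this gene, with 30.9, also keeps the intron, and the summed retaining coverage was 88.6. The order was turned most clearly on scaffold 64 (1321556 to 1321642, 87 bp), with 6.34 and 16.4. The coding sequence of that gene is only 48 bp when spliced. The same holds for the gene on scaffold 172 (915539 to 915628, 90 bp), with a coverage of 32.4 retained and 6.23 spliced.

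**Figure D5:**
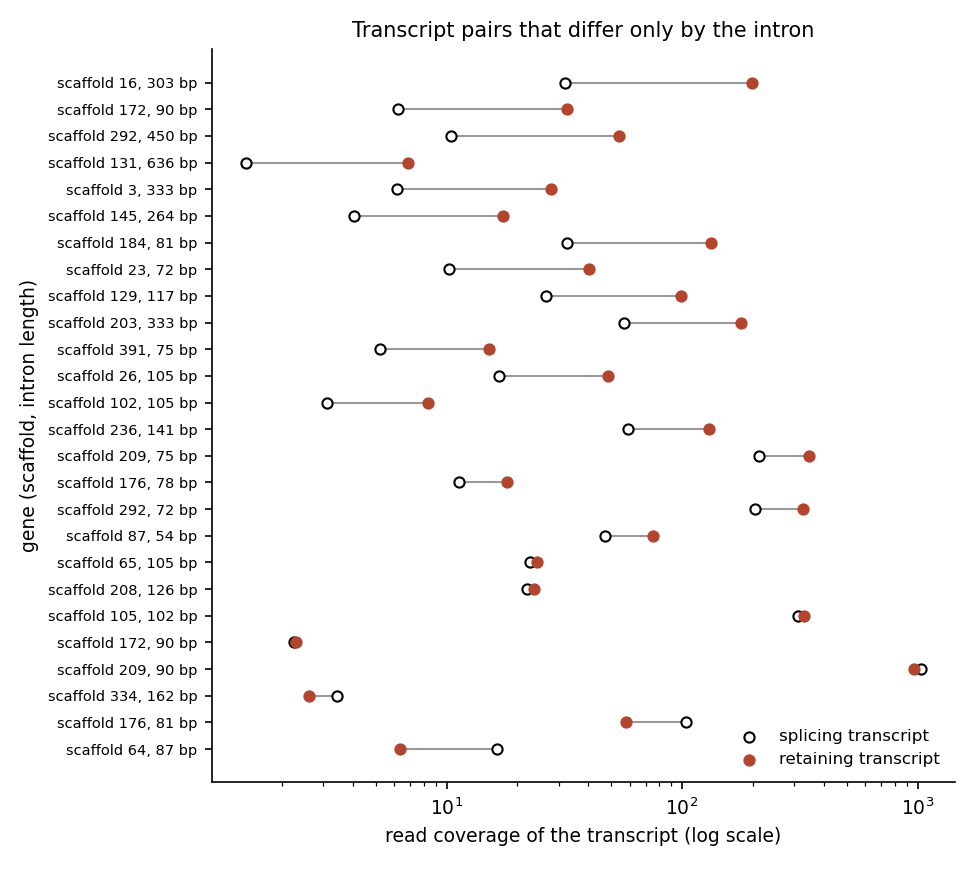
Read coverage (log axis) of the retaining (red) and the splicing transcript (open) in each of the 26 pairs whose coding segments are identical apart from the intron, labelled by scaffold and intron length and ordered by the ratio of the 2. The red point lies to the right in 22 pairs and to the left in 4.

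The extremes of the coverage ratio were taken from genes with exactly 2 transcripts and a coverage of at least 10 on each side. The highest ratio, 7.56-fold toward retention, was that of an intron of 281 bp on scaffold 128 (2310327 to 2310607), kept at a coverage of 281 and spliced at 37.2. It lay 3 coding bases after the start of the splicing sequence of 3018 bp, while the retaining sequence measured 7611 bp. After the intron of scaffold 16, introns on scaffold 38 (3298043 to 3298119, 77 bp) at 5.79-fold, scaffold 203 (894151 to 894234, 84 bp) at 5.29-fold and scaffold 60 (55359 to 55423, 65 bp) at 5.26-fold followed. In 3 of these 5 the length is not a multiple of 3.

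The lowest ratio belonged to an intron of 82 bp on scaffold 4612 (533 to 614), kept at a coverage of 340 and spliced at 1960, or 5.76-fold toward splicing. It was followed by introns on scaffold 170 (1135128 to 1135212, 85 bp) at 3.09-fold and scaffold 268 (387267 to 387349, 83 bp) at 2.30-fold, none of these 3 being a multiple of 3. The other low ratios were at introns of 84 bp on scaffold 70 (772683 to 772766) and 159 bp on scaffold 322 (18871 to 19029), both multiples of 3, at 1.93-fold and 1.82-fold. On scaffold 170 the splicing transcript had 25 coding segments and the retaining one 13, and the retaining coding sequence ended 19 bases after the intron.

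Among genes with a retained intron, those with the most summed coverage differed in the size and the direction of the ratio. On scaffold 346, described under the other observations, an intron of 456 bp was kept at 3930 and spliced at 7343. The other retained intron of that gene, of 228 bp, had the reverse. On scaffold 431 the retaining transcript of the 53-bp intron had a coverage of 20399 and the splicing transcript 4516. Both coding sequences were short there, at 321 and 447 bp. The gene on scaffold 367 kept an intron of 499 bp (474823 to 475321) at 1365 and spliced it at 833, and that on scaffold 28 kept an intron of 87 bp (1697727 to 1697813) at 1494 and spliced it at 903. Both of the latter lie within 2-fold. Over all genes with a retained intron, coverage spanned a wide range, from 3.28 to 24914 when summed over the transcripts of a gene, with a median of 229.6 over the 125 genes.

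Several introns of one gene shared ends. The gene on scaffold 99 had 3 overlapping retained introns in 4 transcripts: 192 bp from 1404071 to 1404262, 96 bp from 1404075 to 1404170 and 192 bp from 1404075 to 1404266. A single transcript, with a coverage of 24.6 and a coding sequence of 4179 bp in 29 segments, kept all of them, and the 3 splicing transcripts had 7.81, 11.7 and 13.4. All 3 lengths are multiples of 3. In the models, the intron ends lie 4 bp apart at the 5′ end and, for the pair of 192 bp, also 4 bp apart at the 3′ end. Without the sequence, it was not checked whether these ends are splice sites. On scaffold 105 the 102-bp intron had a longer form of 112 bp (1789204 to 1789315), which is not a multiple of 3 and was spliced in a transcript with a coding sequence of only 276 bp and a coverage of 212. On scaffold 176 the retained introns of 81 and 54 bp lay in one retaining segment of 6747 bp and did not overlap.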

How the data were processed

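The deposited annotation lists, per transcript, the coding segments with a read coverage and an FPKM value, for the 3 libraries (ovary, ovotestis, testis) together. The authors mapped the reads with TopHat 1.3.3 and Bowtie 0.12.7 and assembled transcripts with Cufflinks 1.1.0 according to the submitters' processing notes (the paper names a later Cufflinks release), and checked open reading frames with a hidden Markov model. That the deposited segments are trimmed to these frames was read from their lengths. The sources used here do not state the Cufflinks settings, which decide the isoforms kept, the name of the build or whether reads were pooled before assembly. The deposited coverage was used as given, with no pseudocount, since its lowest value was 0.627.

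Python 3.11.15 with numpy 2.4.6 served to derive introns, frames and positions, scipy 1.17.1 the intervals, and matplotlib 3.10.9 the figures. Gene identifiers with transcripts on both strands (162) were handled per strand. The script was tested on simulated models. Shares carry exact Clopper-Pearson 95% intervals and medians 95% intervals from order statistics, which cover counting error only. Regions named were the 5 longest, the 5 shortest, the 5 in the most covered genes, the 5 highest and the 5 lowest coverage ratios, the gene with 3 retained introns, 2 of the 6 genes with 2 (scaffolds 105 and 176, taken by alphabetical order of the scaffold names) and that on scaffold 72. The introns on scaffolds 64 and 172 were named after their values were seen. The set of introns and the comparisons were chosen with earlier results of these data known. Alternatives changed the smallest gap, the bases required on each side, the ends of the retaining segment, the smallest coding length, the number of transcripts, the background set and the coverage measure.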

Additional observations from a re-analysis of the deposited data

How the results depend on the processing

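In total 17 alternatives were run. Of these, 3 could not bear on stability: a smallest gap of 50 bases and coding lengths that are multiples of 3 left the same 133 introns, and FPKM is a constant multiple of coverage within a gene. Under the other 14, 41 of 49 values stayed within the 95% interval of the described one (for counts, within 1.5 times), and no sign of a difference was turned. Requiring the retaining segment to end where the flanking segments of any splicing transcript end left 68 introns, of which 92.6% were multiples of 3. The difference from the other introns was then 63.0 percentage points, and 19.1% had less coverage on the retaining side. Genes with exactly 2 transcripts held 76 retained introns. For pairs with coding segments identical apart from the intron, an alternative chosen after seeing the data, the median log2 ratio was 1.29 and 15.4% had less coverage on the retaining side. For multiples of 3, also chosen after seeing the data, that share was 17.5%. These 4 alternatives keep fewer introns by construction. The libraries are 1 per gonad and their values were not separate, so no library could be left out. No paired analysis was possible because no value is given per sample. Depth is known only as coverage, and introns retained in rare transcripts that were not assembled are not counted.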

Other observations

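Among genes with a retained intron, the second most covered, on scaffold 346, held a reciprocal pair. Its transcripts share the first and last coding base, and one of them, with a coding sequence of 462 bp and a coverage of 7343, spliced an intron of 456 bp (242810 to 243265) and kept one of 228 bp (243299 to 243526). Another, with 690 bp and a coverage of 3930, did the reverse, and the remaining transcript, of 690 bp and with a coverage of 3732, did neither. Both introns are multiples of 3, and the longer one takes up 66.1% of the coding sequence that keeps it. Without the sequence, it was not checked whether these gaps end at splice sites, or whether they are introns at all.

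Retained introns were found at every level of coverage. With the 7029 genes that have introns and 2 or more transcripts ordered by summed coverage and divided into 4 groups of nearly equal size, the share of introns that were retained was 0.150%, 0.169%, 0.136% and 0.241% from the least to the most covered group (22, 36, 30 and 45 introns). The exact 95% interval of the most covered group, 0.176% to 0.322%, overlapped those of the other 3 groups. Scaffolds 3 and 105 carried 4 retained introns each, 7 scaffolds carried 3, 16 carried 2 and 72 carried 1.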
